A study of Mus musculus with 6 samples.

Results

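Retinoic acid receptors, binding proteins and enzymes were compared between the part of the E11.5 mouse lung (E, embryonic day) that was forming branches and the part that was not. The 9 genes were Aldh1a2, Cyp26a1, Crabp1, Crabp2, Rara, Rarb, Rarg, Rxra and Rxrb. Every probe set that the platform annotation pairs with 1 of these symbols alone was taken, which gave 9 probe sets for 8 of the 9 genes among the 12488 probe sets of the array, which name 8251 genes in this way. Rxra had 2 probe sets, and Rarb is not analysed here because no probe set carries its symbol alone. The genes were chosen by their role with earlier results of the same comparison of regions in view, so their differences between regions are a description. No p-value is given for a member, and the count of members called is printed only beside the share called over the whole array.

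The branching region was dissected from the lungs of the right and left sides, and the non-branching region was made up of both main bronchi with a piece of trachea. Total RNA was hybridised to 3 arrays for branching and 3 for non-branching, each array holding its own sample. All 6 samples were of the same stage, the labels name no treatment or genotype, and they give no strain. They do not say whether replicates came from separate embryos, so the errors cover the spread among these arrays, part or all of which may be technical. In tissue RNA of this kind, fewer cells of a type and less RNA per cell cannot be told apart. Each value is the deposited signal of a probe set on a linear scale, and the signals of different probe sets cannot be ranked against each other.

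Retinoic acid is made from vitamin A by oxidation to retinaldehyde and then to the acid, the last step by enzymes such as ALDH1A2. Inside the cell it is carried by the binding proteins CRABP1 and CRABP2 and broken down by CYP26 enzymes. It acts through receptors of the RAR family, which pair with RXR receptors on repeated short DNA elements near target genes. In the mouse embryo, loss of retinoic acid signalling disturbs the formation of the lung buds from the foregut, and in mouse lung explants excess signalling interferes with branching.

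The best known of these DNA elements is a direct repeat of a hexamer with 5 bases between the copies, called DR5. The hexamers searched were the canonical AGGTCA, its variant AGTTCA, which both elements shown here hold, GGTTCA, which the Rarb element holds, and lastly GGGTCA. Any pair of them in the same direction, spaced by 1, 2 or 5 bases (DR1, DR2 and DR5), was counted on both strands. RefSeq windows of 300 bases, 250 before and 50 after an annotated start (build GRCm38.p6), were held for 8 of the 9 genes, 14 windows in all. Crabp2 had none. A DR5 was found in the windows of Rarb and Cyp26a1 and in 0.0974% of all 32851 windows of the table. No DR1 or DR2, which were in 0.222% and 0.268% of all windows, was found in those of the 8 genes. The 2 elements are shown because both genes are textbook targets of retinoic acid and the array reads neither of them well. Capitals mark the 2 hexamers of the repeat, and each run is written along the strand of the gene.
Rarb, chr14:16575483-16575559, minus strand: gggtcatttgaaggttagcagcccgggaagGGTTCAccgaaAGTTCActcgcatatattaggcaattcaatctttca
Cyp26a1, chr19:37697746-37697807, plus strand: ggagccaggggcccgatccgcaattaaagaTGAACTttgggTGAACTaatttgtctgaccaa
The repeat lay from base -53 to -37 before the Rarb start. In Cyp26a1 it lay from -32 to -16 and reads along the opposite strand, as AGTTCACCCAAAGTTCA. A match describes these letters and does not show that a receptor was bound there.

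The 2 members that differed most between the regions, Crabp1 and Rarg, held no such repeat in their windows. The 100 bases before the Crabp1 start and before the upstream of the 2 Rarg starts are shown because these genes carry the regional difference. Capitals mark the GC box GGGCGG on either strand, the element bound by SP1 in many promoters without a TATA box.
Crabp1, chr9:54764648-54764747, plus strand: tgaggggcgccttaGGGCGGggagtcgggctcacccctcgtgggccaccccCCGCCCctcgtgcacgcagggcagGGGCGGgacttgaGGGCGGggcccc
Rarg, chr15:102257523-102257622, minus strand: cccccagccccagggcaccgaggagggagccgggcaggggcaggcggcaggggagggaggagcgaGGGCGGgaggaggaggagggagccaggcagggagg
Crabp1 had 4 GC boxes in this stretch and Rarg 1, while the stretch before the other Rarg start, not shown, had 0. A GC box was present in the same stretch of 24.7% of all windows. TATAAA was in none of these stretches of Crabp1 and Rarg, and in 3.8% of all windows.

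The arrays had been brought to a common level before deposit. Their median signals were 212 to 221 in branching and 217 to 229 in non-branching, and the controls for bacterial and yeast transcripts had a median of 19.8 to 40.7 on 5 arrays and of 78.8 on the remaining one, non-branching replicate 2. A background level of 147 was taken as the 95th percentile of 114 values of these controls, pooled over the 6 arrays. It was not set array by array. A signal at or below this level was treated as one that cannot be told from that of a transcript that is not there. The general epithelial gene Cdh1 and the lung epithelial regulators Foxa2 and Shh were above it on all 6 arrays. The epithelial gene Epcam was above it on non-branching replicate 2 alone, at 151.5, and Krt19 on branching replicate 1 alone, at 176.7. Surfactant gene Sftpc was above it on all arrays but non-branching replicate 2, at 74.5.

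Of the pathway members, a receptor and a binding protein were lower in branching, Rarg and Crabp1, while the enzyme gene Aldh1a2, the binding protein gene Crabp2 and the partner receptor genes Rxra and Rxrb had overlapping signals in the regions. Rara was lower in its mean but overlapped. Differences are on the log2 scale, branching minus non-branching, from limma fitted across all 9316 probe sets that passed a filter on low signal. Of the 9 member probe sets, 8 passed that filter, for 7 genes, and Rarg and Crabp1 passed it on the branching arrays alone as well as on the non-branching ones. Among the 8, the fit called 2 lower and 0 higher at an adjusted p under 0.05, where over the whole array it called 2.03% (1.13% lower and 0.902% higher). The groups did not overlap for those 2, and they did not overlap for 20.8% of all probe sets tested. Since the members were chosen with this comparison known, nothing is read from these counts. The median difference of the 7 genes was -0.16, and that of all probe sets tested was -0.0046.

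**Figure D1:**
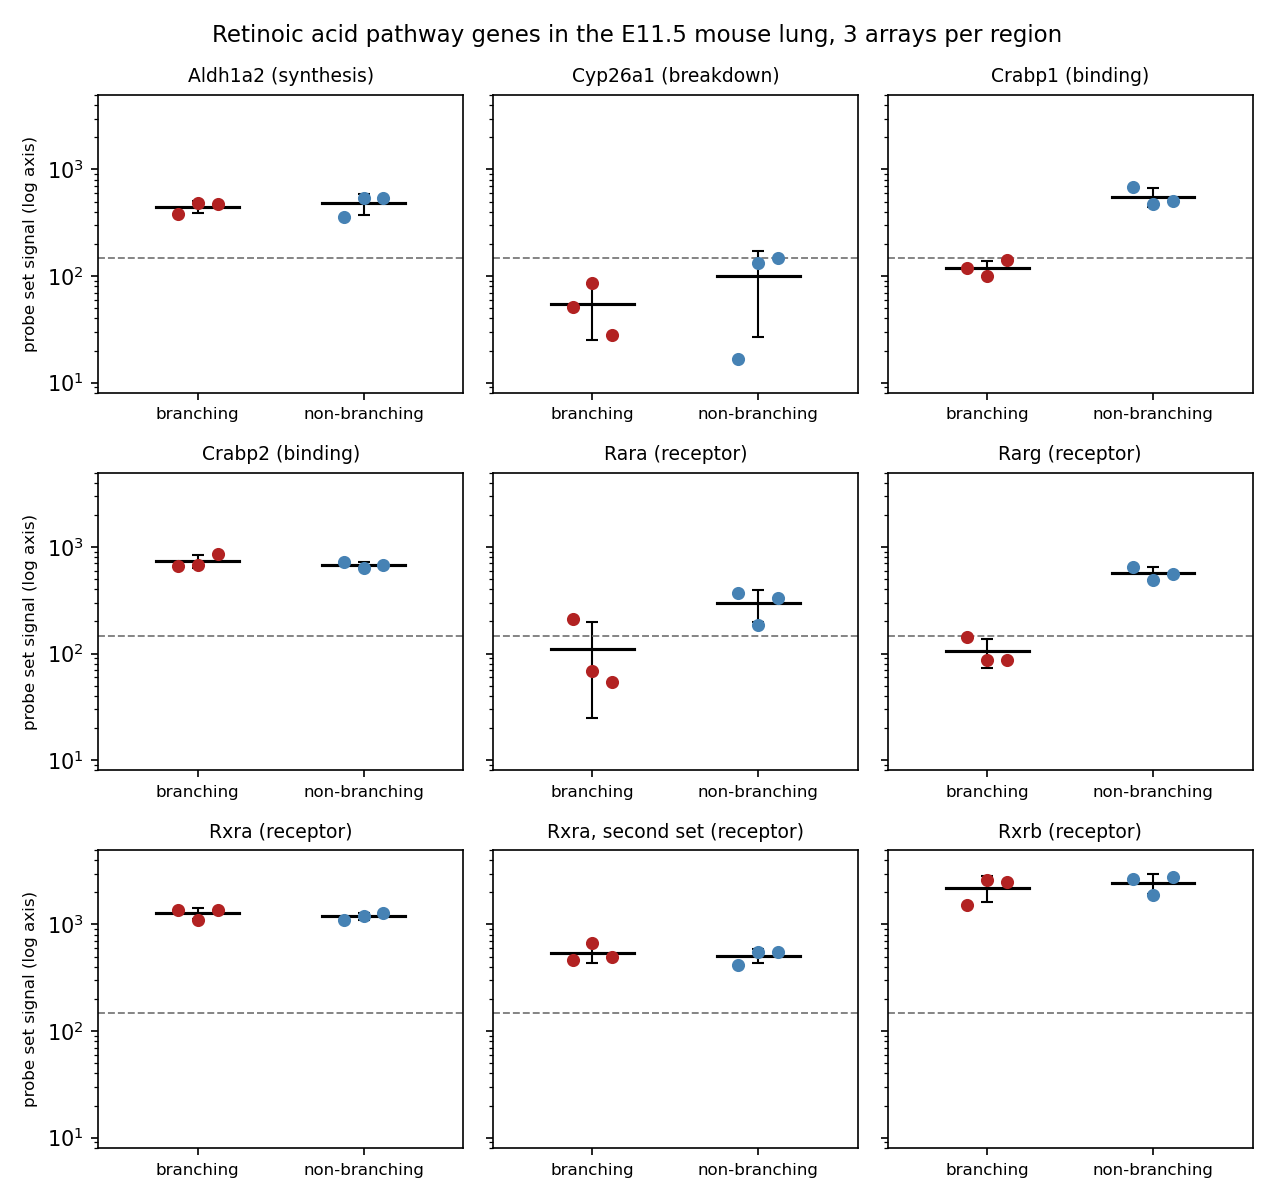
Signal of the 9 member probe sets on each array (log axis), branching in red left of non-branching in blue, with replicates 1 to 3 from left to right as points, the mean as a bar and the SD as whiskers (n = 3). The dashed line is the background level of 147. Crabp1 and Rarg lie below it on the 3 branching arrays and at 474 or more on the 3 non-branching arrays.

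Synthesis was read by Aldh1a2 (Entrez gene 19378), the main retinaldehyde dehydrogenase of the early embryo, made in the mesoderm and in the mesothelium that covers the lung. Its signal was 381, 486 and 469.5 on branching replicates 1 to 3, against 361, 545 and 535 on the non-branching ones. The ranges lay within each other, and replicate 1 was the lowest in both regions. The mean was 446 ± 56.8 in branching, against 480.5 ± 104 in non-branching (SD, 3 arrays each), a difference of -0.09 ± 0.23 (SE) with a 95% interval from -0.61 to 0.43. The mesothelial genes Upk3b and Wt1 were above background on all 6 arrays, Wt1 only just so in non-branching (150, 164 and 162). Bnc1 was at background on non-branching replicate 1, and Krt19 on all arrays but branching replicate 1. Of 3 mesothelial markers tested, 0 passed in limma in either direction (0 also at an unadjusted p under 0.05), and the summed signal of the 5 on the array was 1305 to 1710 in branching and 1044 to 1385 in non-branching. Msln was at or below background on all arrays, and the part of mesothelium in the Aldh1a2 signal was not tested.

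Breakdown was read by Cyp26a1 (Entrez gene 13082), which hydroxylates retinoic acid. Its signal was 50.7, 86.7 and 27.7 in branching, against 16.5, 132 and 149 in non-branching. Non-branching replicate 3 alone was above background, and barely so. The probe set did not pass the filter on low signal, so no difference is given.

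Binding was read by Crabp1 and Crabp2. Crabp1 (Entrez gene 12903), whose product holds retinoic acid in the cytoplasm and which marks neural crest and mesenchyme in the mouse embryo, had signals of 119, 101 and 140.2 in branching, against 680.4, 474 and 508 in non-branching. All 3 branching arrays were at background and all 3 non-branching arrays were more than 3 times above it. The mean was 120.2 ± 19.6 in branching, against 554 ± 111 in non-branching (SD, 3 arrays each), and Crabp1 was at least 3.72-fold lower in branching, a bound because the branching signal cannot be told from background. Crabp2 (Entrez gene 12904), whose product passes retinoic acid to the receptors in the nucleus, had 668, 682 and 852 in branching, against 725, 638 and 680.2 in non-branching. The groups overlapped, with branching replicate 3 the highest array. The means were 734 ± 102 in branching and 681 ± 43.7 in non-branching, and the difference was 0.10 ± 0.17 (95% interval -0.27 to 0.47).

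Of the RAR receptors, Rarg (Entrez gene 19411), the subtype known in the mouse embryo from precartilage and cartilage, had signals of 142, 86.9 and 86.7 in branching, against 644, 487 and 561 in non-branching. The lowest non-branching array was more than 3 times the highest branching array, and all 3 branching arrays were at background. The mean was 105 ± 31.9 in branching, against 564 ± 78.5 in non-branching (SD, 3 arrays each), at least 3.81-fold lower in branching. Rara (Entrez gene 19401), the subtype with the broadest expression in mouse tissues, had 211, 68.7 and 54.2 in branching, against 372, 186 and 332 in non-branching. Branching replicate 1 was above non-branching replicate 2, and branching replicates 2 and 3 were at background. The difference of -1.63 ± 0.55 had a wide interval, from -2.87 to -0.38 before any adjustment over probe sets, and the fit did not call it. With an array left out it ran from -2.22, without branching replicate 1, to -1.24, without branching replicate 3, and it was called in none of these fits.

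Among the 8 tested member probe sets, Rara varied most between arrays of one region. Its residual SD on the log2 scale was 0.83, against 0.15 for Crabp2, the lowest of the 8 member probe sets, and a median of 0.32 over all probe sets tested. Rarg had 0.32 and Crabp1 0.26. The highest branching array of Rara was 3.89 times the lowest, against 1.64 times for Rarg and 1.39 times for Crabp1. The dim Cyp26a1 probe set, which was not tested, spread further, its highest non-branching array being 9.02 times the lowest.

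The RXR receptors, which pair with RARs and with several other nuclear receptors, had overlapping signals in the regions. Rxra (Entrez gene 20181) had 1369.9, 1096 and 1374 in branching, against 1098, 1193 and 1286 in non-branching. The difference was 0.10 ± 0.14 (SE, 95% interval -0.22 to 0.41). Its second probe set had 469, 675 and 493 in branching, against 419.9, 548 and 557 in non-branching, and the same difference of 0.10 with a wider error of 0.22. Rxrb (Entrez gene 20182) had 1522, 2639 and 2496 in branching, against 2685, 1877 and 2796 in non-branching. Branching replicate 1 and non-branching replicate 2 were the low arrays, and the difference was -0.16 ± 0.23 (95% interval -0.67 to 0.34). The intervals of Aldh1a2, Crabp2, Rxra and Rxrb leave out a difference of 1 log2 unit, that is 2-fold, in either direction, but they hold smaller differences of both signs.

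**Figure D2:**
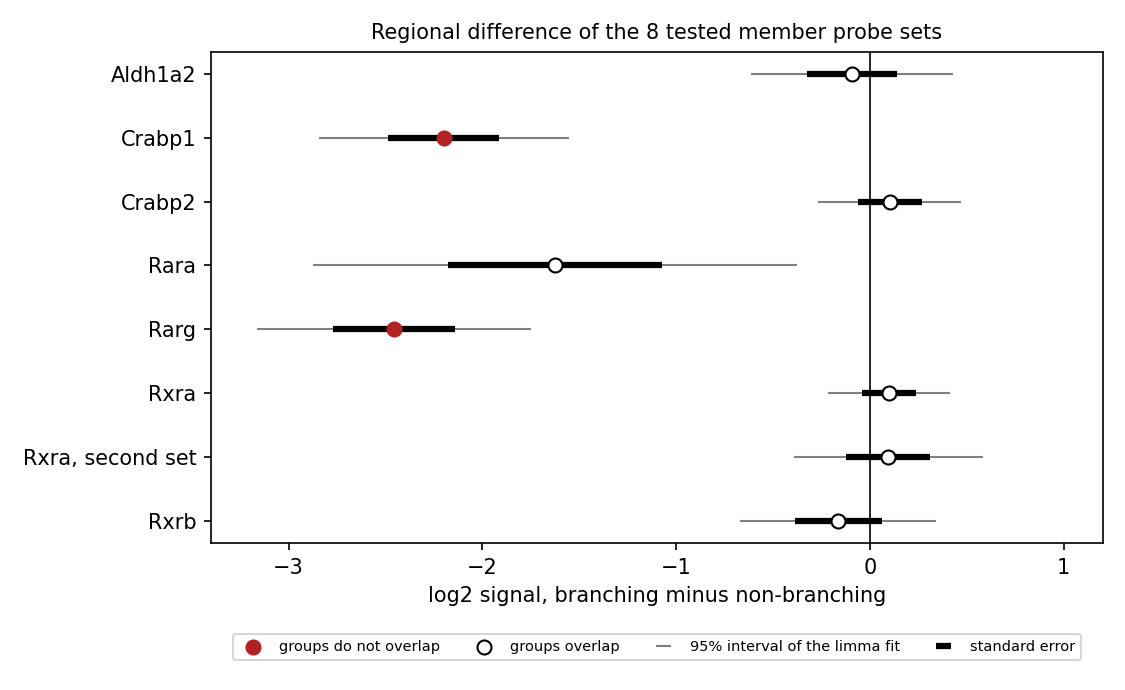
Difference in log2 signal, branching minus non-branching, of the 8 tested member probe sets (points), with the standard error (thick line) and the 95% interval of the limma fit (thin line), 3 arrays per region. Filled points are probe sets whose groups do not overlap, Crabp1 and Rarg, whose branching signals are at background, so that for these the point is not an exact size. The other points but Rara lie between -0.16 and 0.10.

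The genes whose signals over the 6 arrays lay closest to those of the 2 called members were found by the root mean square difference of log2 signals, each gene centred on its own mean. For Crabp1 these were Mgp (0.12), which encodes a matrix protein that restrains calcification, the smooth muscle myosin gene Myh11 (0.22), the collagen gene Col8a1 (0.28) and Igfbp7 (0.29), an insulin-like growth factor binding protein gene. For Rarg they were the kinase gene Mark1 (0.24), Mgp (0.29), Crabp1 (0.31) and Astn1 (0.33), a neuronal adhesion gene. Crabp1 was rank 3 of 8294 probe sets for Rarg, and Rarg rank 5 for Crabp1. Both members were chosen for a low branching signal, so genes near them share that step between regions by construction. Mgp had 539, 476.5 and 586 in branching, against 2529, 2108 and 2436 in non-branching, well above background throughout. Mark1, Astn1, Igfbp7 and Col8a1 were at background on all branching arrays, as were Crabp1 and Rarg themselves. Mark1 and Astn1 were also at background on non-branching replicate 2, Igfbp7 on non-branching replicate 3, and Myh11 on branching replicate 1, so the distances of these genes rest in part on signals that cannot be told from background.

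**Figure D3:**
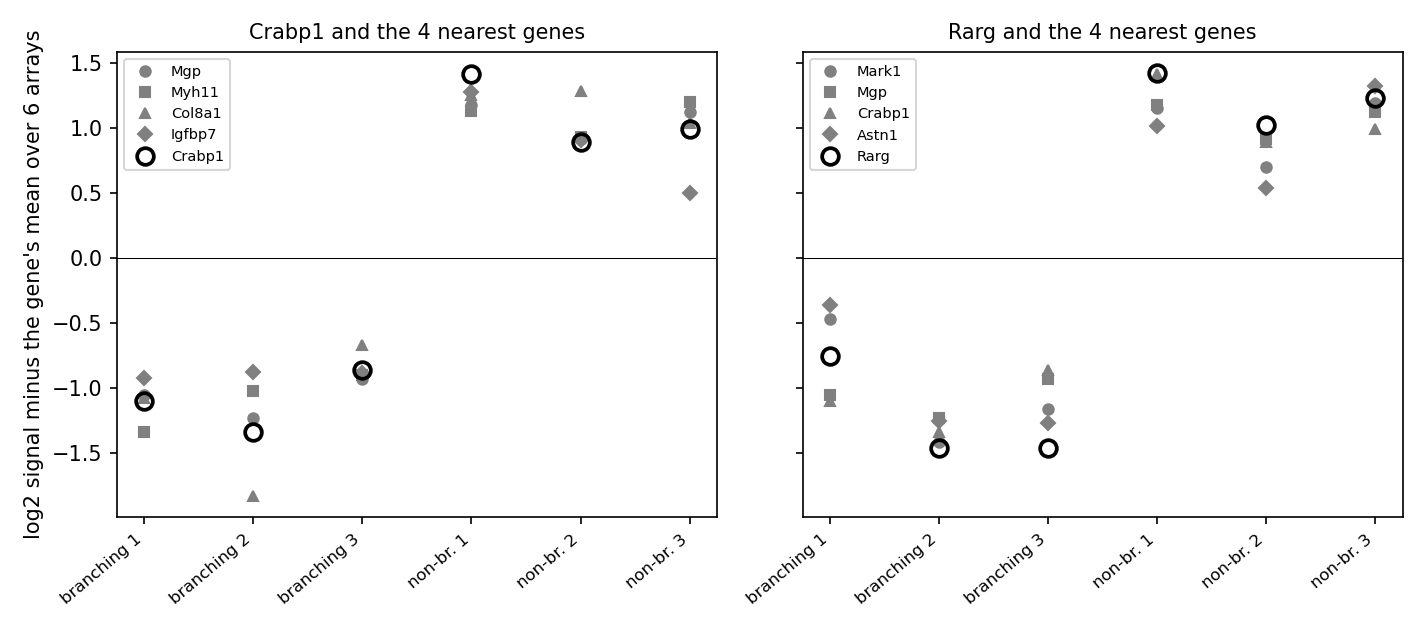
Log2 signal minus the gene's mean over the 6 arrays for Crabp1 (left) and Rarg (right), drawn as open circles, and for the 4 genes closest to each (grey symbols), 3 branching arrays left of 3 non-branching arrays (non-br.). All genes shown are below their mean on the branching arrays and above it on the non-branching arrays.

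Some markers of several tissues were lower in branching together with Crabp1 and Rarg. Of 7 smooth muscle markers tested, 5 were called lower in branching, and their summed signal was 4919 to 5271 in branching and 9928 to 11292 in non-branching, with Smtn at or below background on all arrays. Of 7 cartilage markers tested, 3 were called lower, and the summed signal of the 11 on the array was 3471 to 3592 in branching and 6151 to 6586 in non-branching. Of these 11, the mature cartilage genes Acan, Matn1, Matn3 and Hapln1 were at or below background on all 6 arrays, and Sox9 is not analysed here. Col2a1 and Col11a2 differed the other way, by 0.25 ± 0.28 and 0.66 ± 0.66 (SE, log2 scale), and were not called. Col2a1 was above background on all 6 arrays with overlapping groups, and Col11a2 on branching replicate 1 alone. Of 5 neural crest, glial and neuronal markers tested, Sox10 alone was called lower, with a mean of 829 in branching against 1718 in non-branching. The summed signal for the 10 on the array, Sox10 included, was 4198 to 4488 in branching and 4964 to 5487 in non-branching. Stmn2 and Erbb3 were lower and not called. Tubb3 and Ednrb differed the other way and were not called, Tubb3 by 0.16 ± 0.11 without overlap and Ednrb by 0.015 ± 0.36 with overlap. Phox2a, Ret, Elavl4, Foxd3 and Snap25 were at or below background on all arrays. Of 8 endothelial markers tested 1 was called lower, Vwf (sums 1886 to 2592 in branching and 3286 to 3313 in non-branching). Vwf had 68.9, 41.5 and 45.7 in branching, all at background, against 396, 465 and 288 in non-branching, and it passed the filter only through its non-branching arrays, while its second probe set was at background on all 6 arrays. Of 8 epithelial markers tested 0 were called (1 higher and 1 lower at an unadjusted p under 0.05, sums 4628 to 4929 in branching and 4137 to 4469 in non-branching), and of 5 red blood cell markers 3 were called higher (sums 136013 to 151256 in branching and 87774 to 95293 in non-branching). The part of these cells in the Crabp1 and Rarg signals was not tested.

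The other genes of the pathway were described from 8 lists made up from knowledge of the pathway. Counting each gene once, 67 of 90 listed genes were on the array and 51 passed the filter. In limma 3 of the 51 rose in branching, Hoxb5, Hoxa5 and Tgfbi, none fell and 48 did not pass, against 2.03% called over the whole array. At an unadjusted p under 0.05, 8 were higher and 8 lower, and nothing is read from this count. Many probe sets of the array lay under that threshold, since Nr2f1, with an unadjusted limma p of 0.0432, was rank 1238 of the 9316 tested. The same limit holds for the counts at this threshold in single lists. Isl1, among the 8 lower, passed the filter only through its non-branching arrays. With branching replicate 3 left out 1 of the 3 calls was left, Hoxb5, and with no variance trend in the fit 0. The median difference of the 51 was 0.03. The Hox genes were already known to differ when the lists were made, so their calls are not independent of that choice.

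Among genes of retinoid uptake and transport, 0 of 4 tested were called in limma (1 lower at an unadjusted p under 0.05, median -0.08). Stra6, the receptor that takes up retinol from its carrier protein and itself a retinoic acid target, had 234, 53.5 and 123 in branching, against 413, 531 and 427 in non-branching. All branching arrays were below all non-branching arrays and 2 of them were at background, but the limma adjusted p was 0.0819. Over 14 alternatives it passed in 1, without branching replicate 1 (0.0343), and the highest value of the other 13 was 0.249. Rbp4, the carrier of retinol in blood, did not pass the filter.

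Among synthesis genes, 0 of 9 were called in limma (1 higher and 1 lower at an unadjusted p under 0.05, median 0.10). Dhrs3, which reduces retinaldehyde back to retinol and is induced by retinoic acid, had 329, 325 and 466 in branching, against 637, 638 and 687 in non-branching. The groups did not overlap, and the difference of -0.83 ± 0.21 (SE) did not pass (limma adjusted p = 0.0832). Of the other retinaldehyde dehydrogenases, Aldh1a1 differed by -0.09 ± 0.30 (adjusted p = 0.935) and Aldh1a3 was at or below background on all 6 arrays. The dimmer probe set of Aldh1a1 differed the other way, by 0.17 ± 0.42 with overlapping groups (limma adjusted p = 0.902). Breakdown had 1 tested gene besides the members, Cyp2c39, a mouse liver hydroxylase, whose signals ran from 164 to 888 in branching and from 156 to 790.1 in non-branching (adjusted p = 0.986). Fabp5, a fatty acid binding protein that can also carry retinoic acid, had 1753, 1135 and 1419.8 in branching, against 597, 1134.5 and 777 in non-branching. Its lowest branching array was level with its highest non-branching array, and the difference of 0.81 ± 0.24 did not pass (adjusted p = 0.151).

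Among 11 tested receptors of the RXR family and its partners, 0 were called in limma (1 higher and 3 lower at an unadjusted p under 0.05, median 0.001). Rxrg, the third RXR, was at or below background on all 6 arrays. Thra, a thyroid hormone receptor that pairs with RXRs, was 2029, 1796 and 1828 in branching, against 2339, 2472 and 2553 in non-branching. These groups did not overlap, yet the difference of -0.38 ± 0.10 did not pass (limma adjusted p = 0.114). The dimmer probe set of Thra differed the other way, by 0.43 ± 0.56 with overlapping groups (adjusted p = 0.79). Among 9 receptor coregulators, 0 were called (1 lower at an unadjusted p under 0.05, median -0.04). The acetyltransferase gene Crebbp had the smallest p, with 59.8, 294 and 392 in branching, against 1308, 655 and 405.5 in non-branching (adjusted p = 0.229).

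Of 15 tested retinoic acid target genes, 2 rose in branching, 0 fell and 13 did not pass (median -0.09). Hoxb5, a homeobox gene of lung mesenchyme, had 2328.5, 1902 and 2293 in branching, against 437, 130 and 434 in non-branching. It rose by 2.90 ± 0.41 (SE, limma adjusted p = 0.00851). Non-branching replicate 2 was at background, so this size is not exact. The difference was 2.31 without that array and reached 3.19 with another array left out. Hoxa5, needed in mice for the trachea and lung, had 1139, 1153 and 1204 in branching, against 731, 638 and 696.5 in non-branching. It rose by 0.76 ± 0.13 (adjusted p = 0.0225), a call that was lost in 5 of 6 omissions of an array and stayed without non-branching replicate 1. Hoxb4 and Hoxb1, with differences of 1.03 and 0.97, did not pass (adjusted p = 0.0630 and 0.141), although their groups did not overlap. These target genes differed in sign, Stra6 and Dhrs3 having the lower branching signal.

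Of 7 lung bud genes that retinoic acid controls in the mouse foregut, 4 were tested and 1 rose. Tgfbi, a matrix protein gene induced by TGF-beta, had 829, 732 and 943 in branching, against 382, 305 and 388 in non-branching. It rose by 1.22 ± 0.19 (limma adjusted p = 0.0138), and without branching replicate 3 the adjusted p was 0.0783. The ligand genes of TGF-beta did not pass, Tgfb3 with -0.57 ± 0.17 (adjusted p = 0.139) and Tgfb2 with 0.05 ± 0.25 (adjusted p = 0.961). The growth factor gene Fgf10 was at or below background on all 6 arrays, as were Tgfb1 and Ccn2. Dkk1, which encodes a Wnt inhibitor, was at background on all arrays but branching replicate 2, which was barely above it at 148.5. It passed the filter only through its branching arrays and was not called (adjusted p = 0.479).

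**Figure D4:**
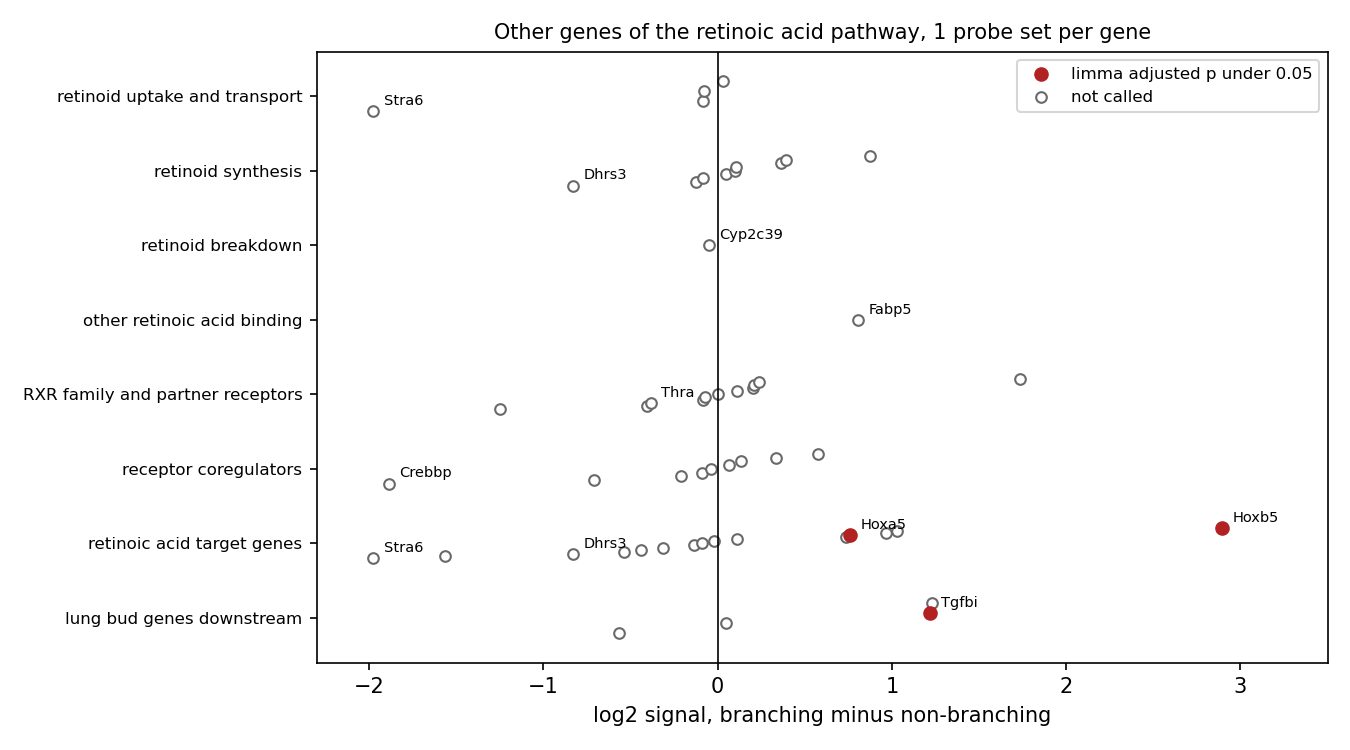
Difference in log2 signal, branching minus non-branching, of the tested genes in each of 8 lists of the retinoic acid pathway, 1 probe set per gene, 3 arrays per region. Filled points are genes with a limma adjusted p under 0.05, Hoxb5, Hoxa5 and Tgfbi, all higher in branching, and open points were not called. Stra6, Dhrs3 and Nrip1 stand in 2 lists.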

How the data were processed

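The deposited table holds 1 intensity per probe set and array on a linear scale. What the authors did to the scans before is not stated in the labels or the table. Trimmed array means of 499.71 to 499.92 show a common scaling, which was kept. The 66 control probe sets of the 12488 were set aside. In the platform annotation 10833 of the others had 1 gene symbol, 396 several and 1193 none. A floor of 16 was set before taking log2, which understates differences of dim genes. The dimmest 25% by mean log2 signal were dropped, and the remaining 9316 were fitted with limma 3.58.1 in R 4.3.3 (2 groups, variance trend, two-sided, Benjamini-Hochberg). A list gene was read by its brightest probe set. A probe set at or below 147 on all 3 arrays of a region has only a bound there, and its fold uses arrays raised to 147. Called pathway genes, or the smallest p of a list, were named. Members and lists were chosen with earlier results of these data known. The fit was tested on simulated data. The number of arrays limits precision. Alternatives were the replicate block, other normalizations, floors and filters, no trend, the mean of a gene's probe sets, and leaving out each array. Protein identities were not analysed here. Promoter sequences are RefSeq's (GRCm38.p6).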

Additional observations from a re-analysis of the deposited data

How the results depend on the processing

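The count of members called was 2, Rarg and Crabp1, under all 14 alternatives run, which supports nothing, since they were chosen with this comparison known. Their branching signals were at background, so no range of fitted sizes is given. Rara ran from -2.22 to -1.24 on the log2 scale, was not called, and could not be tested once the dimmer 50% were dropped. When each array was left out in turn, 4 small differences changed sign: Aldh1a2 ran from -0.286 to 0.017, Crabp2 from -0.011 to 0.164, the second Rxra probe set from -0.068 to 0.195 and Rxrb from -0.346 to 0.087. Cyp2c39 ran from -0.82 to 0.656. Over the whole array 189 probe sets were called, against 114 with the replicate number as a block, 100 with no filter on dim probe sets, 22 with no variance trend and 61 to 150 with an array left out (117 and 72 without branching replicates 2 and 3, and 85 and 61 without non-branching replicates 2 and 3). Of the other pathway genes 3 were called, against 0 with no variance trend and 1 to 3 with an array left out. Without the trend the adjusted p was 0.115 for Hoxb5, 0.125 for Hoxa5 and 0.0905 for Tgfbi. Hoxb5 had 0.0739 with no filter, and Hoxa5 had 0.0778 with the block. With the dimmer 50% dropped, Hoxb4 passed (adjusted p = 0.0412). Same-numbered arrays of the regions did not deviate together (correlations across probe sets -0.0023, 0.0127 and -0.015). With 3 arrays per region this cannot settle whether same-numbered samples came from the same lungs, which the labels do not say. The block ended no member's call. The causes of these changes were not tested.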

Other observations

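Some pathway genes were read by more than 1 probe set with different results. The 2 probe sets of Rdh11, a retinal reductase gene, differed by -0.74 ± 0.20 and 0.10 ± 0.14 on the log2 scale (SE, 3 arrays per region, limma adjusted p = 0.119 and 0.804). For Hoxa4, the brightest probe set differed by 0.11 ± 0.11 (adjusted p = 0.721) and another by -0.60 ± 0.22 (adjusted p = 0.251). The dimmer probe set of Tgfbi was at background on all 6 arrays. The vitamin D receptor gene Vdr, another RXR partner, had 77.4, 98.3 and 139 in branching, against 211, 212 and 316 in non-branching, without overlap (adjusted p = 0.168). Its branching signals were all at background, and its dimmer probe set was at background on all 6 arrays.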
